A study of Mus musculus with 8 samples.

Results

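The mRNA abundance of 10 genes that encode secreted antimicrobial proteins was examined in the uterus at gestation day (GD) 3.5, in mice with and without Nr2f2 in progesterone receptor-expressing cells. The genes were chosen by symbol as secreted antimicrobial proteins, with earlier results of these data known. They were Ltf, Lcn2, Wfdc18, Wfdc2, Slpi, S100a8, S100a9, Lyz2, Defb1 and Camp, 10 of the 24963 genes in the table. Of the 10, 9 had a mean of at least 0.5 FPKM (fragments scaled to transcript length and library total) over the 8 libraries and were tested in a fit of 14323 genes. Camp was below that level and is described by its counts.

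NR2F2, also called COUP-TFII, is an orphan nuclear receptor of the uterine stroma and myometrium. Whole uteri were taken from 4 Nr2f2 f/f females, labelled wild type, whose floxed alleles are intact because no Cre is present, and from 4 Nr2f2 d/d females, in which a Cre knocked into 1 Pgr allele removes the floxed Nr2f2 from Pgr-expressing cells. The controls carry no Cre, so loss of Nr2f2 and the Pgr Cre knock-in cannot be told apart by this design. The labels give the strain as C57B6/J and the age as 8 weeks, the study's methods give 2 to 3 months, and mating was with vasectomized males, which leaves the uterus without embryos. The question for these genes was whether the secreted defence of the uterus differs in abundance when Nr2f2 is lost from these cells.

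The mucosal surface of the uterus is protected by proteins that epithelial cells and infiltrating leukocytes secrete. Lactoferrin (Ltf) and lipocalin 2 (Lcn2) keep iron from bacteria, whey acidic protein (WAP) domain proteins such as Slpi restrain leukocyte proteases, calprotectin (S100a8 with S100a9) binds zinc and manganese, lysozyme cleaves bacterial cell walls, and defensins and cathelicidin (Camp) damage bacterial membranes. In the mouse uterus, lactoferrin is a classical estrogen-induced product of the luminal and glandular epithelium, and its transcript is normally low once progesterone prevails before implantation.

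The sequences before the start sites of the iron-binding pair and of the calprotectin pair are shown because these genes varied most together among the 8 uteri. They come from RefSeq for GRCm38.p6, the assembly that mm10 represents, and read 5′ to 3′ on the strand of the gene. RefSeq windows were found for 9 of the 10 genes, with none for Defb1. Each window covers 250 bases before the RefSeq start base, which is counted as 0, and each printed sequence stops before the first base that GENCODE vM21 annotates as untranslated region of the gene. Capitals mark matches to the letters AGGTCA, a core site of nuclear receptors, and TTGCNNAA, a C/EBP site, each searched on both strands. The sequences are Ltf at chr9:111019042-111019270, plus strand, Lcn2 at chr2:32387798-32387989, minus strand, S100a8 at chr3:90668821-90668977, plus strand, and S100a9 at chr3:90695722-90695971, minus strand.
Ltf: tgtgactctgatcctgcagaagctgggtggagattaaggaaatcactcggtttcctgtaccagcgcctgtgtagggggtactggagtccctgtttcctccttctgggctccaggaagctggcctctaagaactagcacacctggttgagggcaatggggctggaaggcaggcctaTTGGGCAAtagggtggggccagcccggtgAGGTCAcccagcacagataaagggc
Lcn2: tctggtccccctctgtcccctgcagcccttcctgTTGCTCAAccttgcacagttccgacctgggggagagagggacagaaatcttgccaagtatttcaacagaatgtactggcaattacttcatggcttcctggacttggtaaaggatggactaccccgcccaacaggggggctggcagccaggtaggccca
S100a8: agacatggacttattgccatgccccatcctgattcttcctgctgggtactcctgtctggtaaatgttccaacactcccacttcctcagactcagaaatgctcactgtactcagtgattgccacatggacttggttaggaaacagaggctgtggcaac
S100a9: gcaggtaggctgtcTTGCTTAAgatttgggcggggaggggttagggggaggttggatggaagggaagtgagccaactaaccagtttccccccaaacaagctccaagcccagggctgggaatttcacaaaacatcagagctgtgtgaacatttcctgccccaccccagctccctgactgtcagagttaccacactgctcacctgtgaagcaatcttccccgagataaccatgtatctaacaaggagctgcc

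In the Ltf sequence the AGGTCA match lay at -46 to -41 and a C/EBP match on the minus strand at -75 to -68. The C/EBP match of Lcn2 lay at -216 to -209 and that of S100a9 at -236 to -229, and the S100a8 window held no match to any of the motifs searched. Of the printed Lcn2 bases, 139 fall in an exon that vM21 annotates to Lcn2, and the other 3 sequences lie outside the exons of their genes. Among the other windows, Slpi held a C/EBP match on the minus strand at -241 to -234, 1 of the 2 Wfdc2 windows held AGGTCA at -6 to -1, and Wfdc18, Lyz2 and Camp held none. Of 32851 RefSeq windows of the same length, 14% held AGGTCA and 9.56% held TTGCNNAA, so both are common by letters alone. The estrogen response element palindrome GGTCANNNTGACC, which was in 0.0639% of all windows, was in none of the 10 windows of these genes. Likewise none held the AP-1 letters TGANTCA, found in 6.75% of windows, or the NF-kB motif, found in 3.9%. The palindrome was searched by its exact letters and within these windows only, so imperfect or more distant estrogen response elements were not examined. It is so rare among all windows that its absence from 10 says little, and no conclusion on estrogen control of Ltf or the other genes was drawn.

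The deletion was visible in every library. Nr2f2 was at 25.3, 21.8, 25.7 and 23.5 FPKM in Nr2f2 f/f replicates 1 to 4 and at 9.66, 9.42, 6.90 and 9.74 FPKM in Nr2f2 d/d replicates 1 to 4, a log2 fold change of -1.39 with an adjusted p of 0.00549 in limma. Depth, recovered from short genes as the library total that turns their FPKM into whole fragments, was 61500000 to 77950000 fragments in Nr2f2 f/f and 61750000 to 92700000 in Nr2f2 d/d. A count of 3 fragments on a 1-kb transcript, the limit that a count of 0 allows, corresponds to 0.0324 to 0.0488 FPKM, and such limits cover counting error only. Nr2f2 f/f replicate 2 was least like its group across all genes tested, with a median correlation of 0.9391 against 0.9637 to 0.9846 for the other libraries, and it was the highest Nr2f2 f/f library for Wfdc2 and Slpi.

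Of the 9 genes tested, 8 had a higher mean log2 abundance in Nr2f2 d/d than in Nr2f2 f/f, as had 6686 of all 14323. The study's threshold, an unadjusted p under 0.05 with at least a 1.4-fold change, was passed by 6 of them in limma (Ltf, Wfdc18, Slpi, S100a8, S100a9 and Lyz2), all higher in Nr2f2 d/d. Over all 14323 genes tested, 4.70% passed it as higher in Nr2f2 d/d and 4.10% as lower, 8.80% in either direction. An adjusted p under 0.05 (Benjamini-Hochberg over all genes tested) was reached by 1 of the 9, Wfdc18, where 1.09% of all genes reached it as higher and 1.53% as lower. Wfdc18 passed the filter on low values only through the Nr2f2 d/d libraries, and without that filter its adjusted p in limma was 0.0695. All 4 Nr2f2 d/d libraries lay above all 4 Nr2f2 f/f libraries for Wfdc18, Slpi, S100a8 and S100a9, 4 of the 9, as they did for 5.49% of all genes tested. The median log2 fold change was 2.07 over the 9 genes and -0.019 over all genes tested. Because the genes were chosen with earlier results of these data known, these shares and medians are descriptions and no independent test. Fold changes are on the log2 scale of FPKM + 0.5, which understates the change of genes with low values, and whole uterus cannot tell more cells of a type from more RNA per cell.

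**Figure D1:**
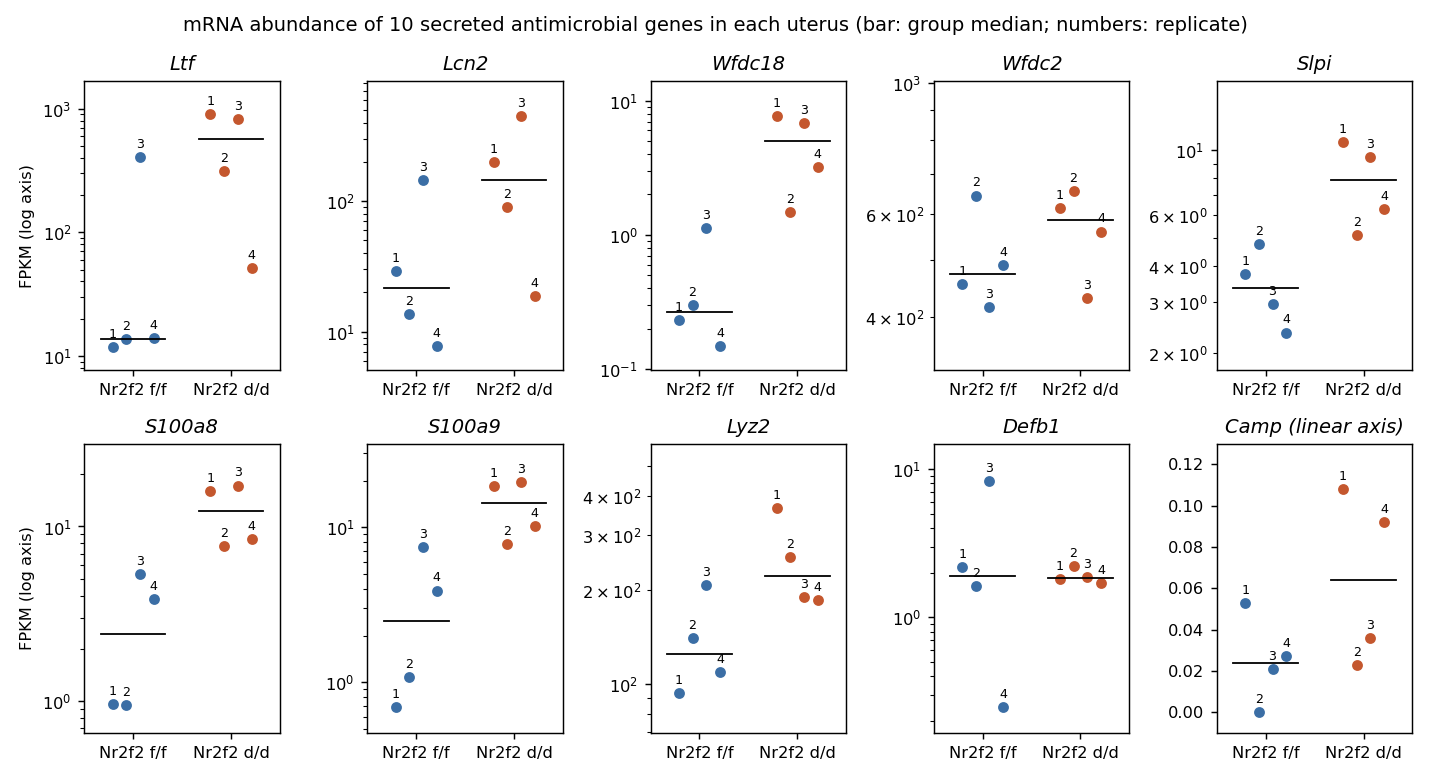
FPKM of each of the 10 genes in the 4 Nr2f2 f/f (blue) and 4 Nr2f2 d/d (orange) uteri, with replicate numbers beside the points and a bar at each group's median; the axis is logarithmic except for Camp. The groups do not overlap for Wfdc18, Slpi, S100a8 and S100a9, while Nr2f2 f/f replicate 3 sits among the Nr2f2 d/d libraries for Ltf and Lcn2.

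Ltf, which encodes lactoferrin, an iron-binding protein of mucosal secretions and neutrophil granules, had the widest range of the genes tested among the controls and reached the highest values. Ltf (chr9:111019271-111042767, plus strand) was at 11.9, 13.6, 407 and 13.9 FPKM in Nr2f2 f/f replicates 1 to 4 and at 898, 314, 823 and 51.4 FPKM in Nr2f2 d/d replicates 1 to 4. Nr2f2 f/f replicate 3 was therefore above Nr2f2 d/d replicates 2 and 4, whereas all 4 Nr2f2 d/d libraries were above the 3 remaining Nr2f2 f/f libraries. Among all genes of a library ordered by FPKM, Ltf stood at place 4805 to 5550 in those 3 libraries, at place 96 in Nr2f2 f/f replicate 3, and at places 28, 135, 45 and 1075 in the Nr2f2 d/d libraries.

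The mean of Ltf was 112 ± 197 FPKM for Nr2f2 f/f and 521 ± 407 FPKM for Nr2f2 d/d (SD over 4 libraries), and the medians were 13.8 and 568 FPKM. The log2 fold change was 3.38 (SE 1.33, 95% interval 0.32 to 6.44), with an unadjusted p of 0.034 and an adjusted p of 0.201 in limma, and the two-sided exact permutation p was 0.0857, where 0.0286 is the smallest that 4 against 4 libraries allow. Without Nr2f2 f/f replicate 3 the log2 fold change was 4.61 with an adjusted limma p of 0.0676. Ltf passed the study's threshold in 2 of the 8 fits that left out 1 library, those that omitted Nr2f2 f/f replicate 3 or the low mutant, replicate 4. Each of the other 6 omissions ended the call, with log2 fold changes of 2.90 to 4.61 over all 8.

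Lcn2 encodes lipocalin 2, which captures the siderophores by which bacteria take up iron, and it shared the highest control and the lowest mutant library with Ltf. Lcn2 (chr2:32384633-32388252, minus strand) was at 29.4, 13.8, 145 and 7.78 FPKM in Nr2f2 f/f and at 199, 89.8, 452 and 18.8 FPKM in Nr2f2 d/d, replicates 1 to 4. Nr2f2 f/f replicate 3 was again the highest control and Nr2f2 d/d replicate 4 the lowest mutant, and the groups overlapped. In the remaining libraries the order differed, since Ltf was lowest but Lcn2 second highest in Nr2f2 f/f replicate 1, and the highest mutant was replicate 1 for Ltf and replicate 3 for Lcn2. The means were 48.9 ± 64.5 and 190 ± 190 FPKM (SD, n = 4 each).

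The difference in Lcn2 did not pass either threshold: the log2 fold change was 2.07 (SE 1.13, 95% interval -0.53 to 4.66), with an unadjusted p of 0.104 and an adjusted p of 0.331 in limma and an exact permutation p of 0.2. It passed the study's threshold without Nr2f2 f/f replicate 3, at a log2 fold change of 2.88 and an adjusted limma p of 0.196, and likewise once Nr2f2 d/d replicate 4 was omitted, at 2.91 and an adjusted limma p of 0.174. Over all 8 fits that left out 1 library the log2 fold change ran from 1.39 to 2.91, with the lowest values, 1.39 and 1.5, when Nr2f2 d/d replicate 3 or Nr2f2 f/f replicate 4 was omitted. The ratio of Ltf to Lcn2 FPKM ran from 0.405 in Nr2f2 f/f replicate 1 to 4.52 in Nr2f2 d/d replicate 1, so the pair did not keep a fixed proportion.

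Wfdc18 encodes a small secreted WAP-domain protein, and it rose from under 0.5 FPKM on average to a few FPKM. Wfdc18 (chr11:83709015-83711348, plus strand) was at 0.233, 0.298, 1.13 and 0.149 FPKM in Nr2f2 f/f and at 7.68, 1.47, 6.84 and 3.20 FPKM in Nr2f2 d/d, replicates 1 to 4. The lowest Nr2f2 d/d library was above the highest Nr2f2 f/f library, and the highest control was once more replicate 3. By the exon length in vM21 these values correspond to about 11.2 to 108 fragments in Nr2f2 f/f and 128 to 774 fragments in Nr2f2 d/d, above the limit that a count of 0 allows in every library.

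The means of Wfdc18 were 0.453 ± 0.457 and 4.80 ± 2.95 FPKM (SD, n = 4 each), and the log2 fold change was 2.37 (SE 0.488, 95% interval 1.24 to 3.49) with an adjusted p of 0.0481 in limma and an exact permutation p of 0.0286, the smallest the design allows. Its Nr2f2 f/f mean was itself under 0.5 FPKM, so it passed the filter through the Nr2f2 d/d libraries. The adjusted p was 0.0512 to 0.128 in the 8 limma fits that left out 1 library, above 0.05 in each, while the study's threshold was passed in all 8 at log2 fold changes of 2.09 to 2.77. With 0.1 or 1 in place of 0.5 added to the FPKM, the log2 fold change was 3.19 or 1.87.

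Wfdc2, also known as HE4, is a WAP-domain protein of reproductive tract epithelium, and it varied least over the 8 libraries. Wfdc2 (chr2:164562413-164568510, plus strand) was at 456, 644, 416 and 491 FPKM in Nr2f2 f/f and at 612, 657, 431 and 559 FPKM in Nr2f2 d/d, replicates 1 to 4, and the groups overlapped. It stood between place 60 and place 98 in every library. The log2 fold change was 0.17 (SE 0.177, 95% interval -0.23 to 0.58) with an adjusted p of 0.612 in limma, and the means were 502 ± 99.7 and 565 ± 97.5 FPKM (SD, n = 4 each).

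Slpi, the secretory leukocyte protease inhibitor that blocks neutrophil elastase, was about 2.09-fold higher in Nr2f2 d/d on the log2 scale of the fit. Slpi (chr2:164354070-164389095, minus strand) was at 3.76, 4.76, 2.94 and 2.36 FPKM in Nr2f2 f/f and at 10.7, 5.09, 9.50 and 6.26 FPKM in Nr2f2 d/d, replicates 1 to 4. The groups did not overlap, although Nr2f2 f/f replicate 2 and Nr2f2 d/d replicate 2 lay close to each other. Slpi was the only gene past the study's threshold for which Nr2f2 f/f replicate 3 was not the highest control.

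The means of Slpi were 3.46 ± 1.04 and 7.89 ± 2.64 FPKM (SD, n = 4 each), and the log2 fold change was 1.07 (SE 0.266, 95% interval 0.46 to 1.68), with an adjusted p of 0.0742 in limma and an exact permutation p of 0.0286. The study's threshold was passed in all 8 fits that left out 1 library, at log2 fold changes of 0.91 to 1.24. A micro RNA gene, Mir7678, shares 0.0847% of the exon bases of Slpi, and the exons of the other 9 genes overlap no other gene in vM21.

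**Figure D2:**
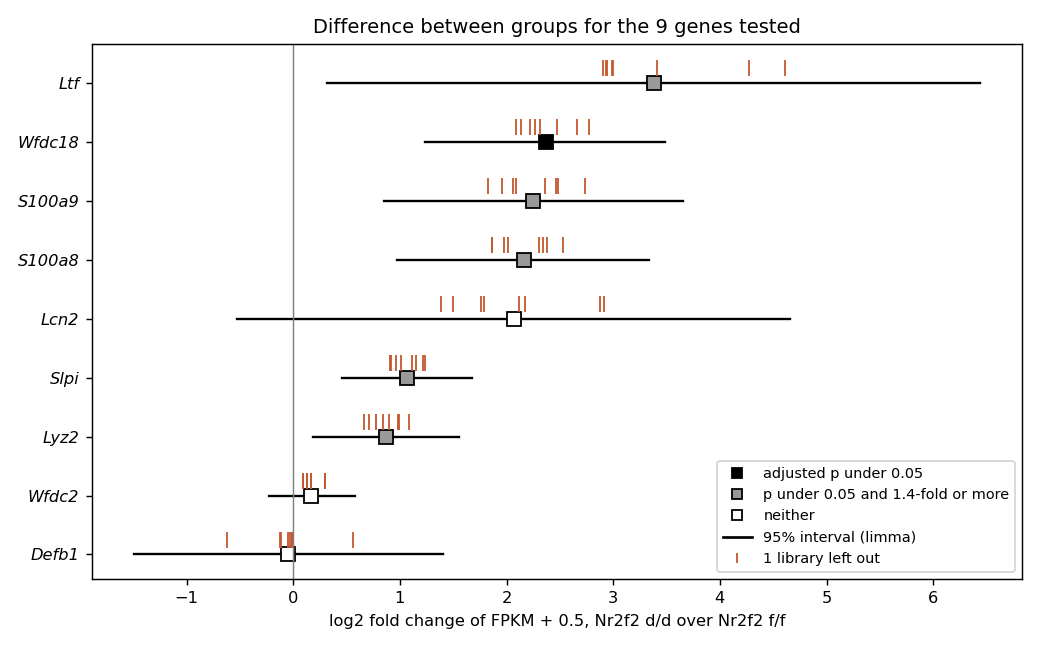
Log2 fold change of FPKM + 0.5, Nr2f2 d/d over Nr2f2 f/f, for the 9 genes tested, with the 95% interval from limma as a line and, as orange ticks, the values with 1 library left out. Wfdc18, filled black, has an adjusted p under 0.05 in the fit of all 8 libraries, the 5 genes filled grey pass only the study's threshold, and the ticks of Ltf run from 2.90 to 4.61.

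S100a8 and S100a9, the subunits of calprotectin, which neutrophils carry in large amounts and which some epithelia make when inflamed, were higher in Nr2f2 d/d by about the same fold. S100a8 (chr3:90668978-90670035, plus strand) was at 0.969, 0.953, 5.37 and 3.86 FPKM in Nr2f2 f/f and at 16, 7.76, 17.1 and 8.45 FPKM in Nr2f2 d/d, replicates 1 to 4. S100a9 (chr3:90692632-90695721, minus strand) was at 0.695, 1.08, 7.44 and 3.91 FPKM in Nr2f2 f/f and at 18.4, 7.84, 19.6 and 10.2 FPKM in Nr2f2 d/d. Neither gene overlapped between the groups, and in both the controls fell into a lower pair, replicates 1 and 2, and a higher pair, replicates 3 and 4.

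For S100a8 the means were 2.79 ± 2.20 and 12.3 ± 4.92 FPKM (SD, n = 4 each), the log2 fold change was 2.16 (SE 0.515, 95% interval 0.97 to 3.34), and the adjusted p in limma was 0.0689. For S100a9 the means were 3.28 ± 3.12 and 14 ± 5.86 FPKM (SD, n = 4 each), the log2 fold change was 2.25 (SE 0.609, 95% interval 0.85 to 3.65), and the adjusted p in limma was 0.0912. The exact permutation p was 0.0286 for each gene. Both passed the study's threshold in all 8 fits that left out 1 library, S100a8 at log2 fold changes of 1.86 to 2.53 and S100a9 at 1.83 to 2.74. The ratio of S100a9 to S100a8 FPKM stayed between 0.717 and 1.39 in the 8 libraries.

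Lyz2, the lysozyme of macrophages and other myeloid cells, was among the most abundant transcripts in both groups, at place 104 to 481 of each library. Lyz2 (chr10:117277331-117282321, minus strand) was at 92.9, 140, 207 and 109 FPKM in Nr2f2 f/f and at 367, 255, 189 and 185 FPKM in Nr2f2 d/d, replicates 1 to 4. Nr2f2 f/f replicate 3 lay above Nr2f2 d/d replicates 3 and 4, so the groups overlapped. The means were 137 ± 50.6 and 249 ± 84.8 FPKM (SD, n = 4 each), and the log2 fold change was 0.87 (SE 0.297, 95% interval 0.19 to 1.55), with an adjusted p of 0.153 in limma and an exact permutation p of 0.0857. The unadjusted p was 0.0524 in limma, past the study's limit, without Nr2f2 f/f replicate 1 and 0.0503 after quantile normalization.

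The neighbouring gene Lyz1, the lysozyme of Paneth cells, went the other way. Lyz1 was at 6.39, 8.95, 5.80 and 4.77 FPKM in Nr2f2 f/f and at 2.82, 2.25, 2.46 and 2.71 FPKM in Nr2f2 d/d, a log2 fold change of -1.16 (SE 0.171) with an adjusted p of 0.0194 in limma. The adjusted p stayed under 0.05 in 5 of the 8 fits that left out 1 library, and rose to at most 0.0721 when replicate 1 of either group or replicate 2 of Nr2f2 d/d was omitted. The ratio of Lyz2 to Lyz1 FPKM was 14.5 to 35.7 in Nr2f2 f/f and 68.3 to 130 in Nr2f2 d/d. The 2 genes are nearly identical in sequence, so the division of fragments between them, and with it the Lyz1 value, is uncertain.

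Defb1, a beta-defensin of epithelia, showed no difference in direction that held between fits. Defb1 (chr8:21776599-21795185, plus strand) was at 2.19, 1.63, 8.28 and 0.248 FPKM in Nr2f2 f/f and at 1.82, 2.22, 1.88 and 1.70 FPKM in Nr2f2 d/d, replicates 1 to 4. The controls spanned 33.4-fold, with replicate 3 highest and replicate 4 lowest, and all 4 Nr2f2 d/d libraries lay within that range and within 1.31-fold of each other. The log2 fold change was -0.05 (SE 0.63, 95% interval -1.49 to 1.4) with an adjusted p of 0.975 in limma, and it was 0.56 without Nr2f2 f/f replicate 3 and 0.11 with 0.1 added before the log2.

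Camp, the cathelicidin of neutrophil granules, was barely detected. It was at 0.053, 0, 0.021 and 0.027 FPKM in Nr2f2 f/f and at 0.108, 0.023, 0.036 and 0.092 FPKM in Nr2f2 d/d, replicates 1 to 4. Camp (chr9:109847379-109849617, minus strand) had values that came to whole fragments, within 0.0195 of a fragment, at a transcript length of 599 bases, as 2, 0, 1 and 1 fragments in Nr2f2 f/f and 4, 1, 2 and 5 in Nr2f2 d/d. Only 2 of the 8 libraries thus held more than the 3 fragments that a count of 0 allows, and the difference was not tested.

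**Figure D3:**
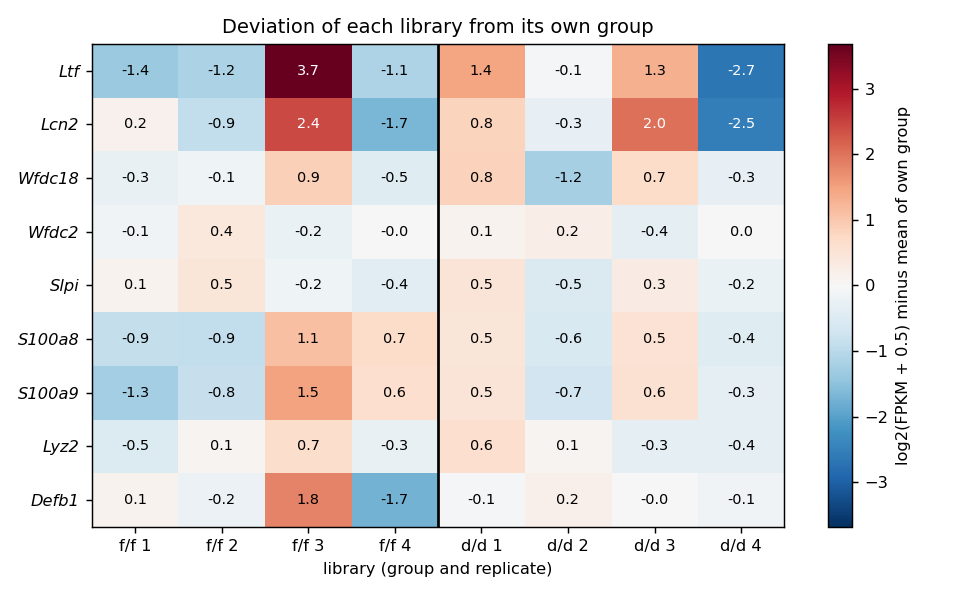
Deviation of each library from the mean of its own group in log2(FPKM + 0.5), for the 9 genes tested in rows and the 8 libraries in columns, red above and blue below the mean. Ltf and Lcn2 share a high value in Nr2f2 f/f replicate 3 and a low value in Nr2f2 d/d replicate 4, while Wfdc2 and Slpi stay within about 0.5 of their means.

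The same libraries stood at the top or bottom for several of the 10 genes. Nr2f2 f/f replicate 3 was the highest of the 4 controls for 7 of the 10, Ltf, Lcn2, Wfdc18, S100a8, S100a9, Lyz2 and Defb1, and replicate 4 was the highest for none. Nr2f2 d/d replicate 1 was the highest of its group for 5, Ltf, Wfdc18, Slpi, Lyz2 and Camp, and replicate 3 for Lcn2, S100a8 and S100a9. The low end of Nr2f2 d/d was split, with replicate 4 lowest for Ltf, Lcn2, Lyz2 and Defb1 and replicate 2 lowest for Wfdc18, Slpi, S100a8, S100a9 and Camp.

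Over the deviations of the 8 libraries from their group means, which share a library and its depth, S100a8 and S100a9 had a Pearson correlation of 0.98 and Ltf and Lcn2 of 0.91, given as descriptions. Ltf was at 0.70 with Wfdc18, 0.73 with S100a8, 0.74 with S100a9 and 0.74 with Lyz2, but at 0.17 with Slpi and -0.43 with Wfdc2. Slpi was at -0.10 with S100a8 although the groups of both genes separated completely. Among the 14323 genes tested, the 3 whose deviations were most like those of Ltf were Cfi at 0.975, Ccr1 at 0.974 and 2310040G24Rik at 0.963. Cfi, the complement factor I protease, was at 3.18, 3.68, 16.9 and 5.08 FPKM in Nr2f2 f/f and 26.0, 15, 31.6 and 7.80 FPKM in Nr2f2 d/d, with the same high control and low mutant as Ltf, and its log2 fold change was 1.55 with an adjusted p of 0.185 in limma. The genes most like S100a9 were S100a8, Pxylp1 at 0.984 and Sdc3 at 0.962, those most like Lyz2 were Nlgn2 at 0.994, Rnaset2b at 0.993 and Nfam1 at 0.992, and those most like Slpi were Gbp9 at 0.987, Top3a at 0.983 and Snrnp200 at 0.981. These genes were picked as the highest of the 14323 on 8 values each. How high such correlations run among unrelated genes was not tested.

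Cell types that make these proteins were followed by lists of markers. Over all genes tested, 4.70% passed the study's threshold as higher in Nr2f2 d/d and 4.10% as lower. A higher mean log2 abundance in Nr2f2 d/d was found for 6686 of all 14323 genes tested. The 12 epithelial markers summed to 880 to 922 FPKM in Nr2f2 f/f and 1160 to 1270 FPKM in Nr2f2 d/d without overlap, and 11 of the 12 had a higher mean log2 abundance, the median difference being 0.29. The study's threshold was passed by 4 of them, Krt8, Krt19, Krt7 and Elf3, at log2 fold changes of 0.74, 1.4, 0.86 and 1.43, while Epcam was at 0.06, Krt18 at 0.06, Cldn3 at 0.01 and Cldn4 at -0.05. The 12 markers of stratified epithelium, a cell type not normally found in the uterine horn, summed to 3.90 to 5.89 FPKM in Nr2f2 f/f and to 23.3, 23.5, 24.8 and 6.39 FPKM in Nr2f2 d/d. Keratins made up most of the sum in Nr2f2 d/d replicates 1 to 3, but not in replicate 4 or in Nr2f2 f/f. Krt5, Krt13, Krt14 and Krt15, picked after their values were seen, together were at 0.082 to 0.647 FPKM in Nr2f2 f/f and at 15.4, 19.0, 19.4 and 1.52 FPKM in Nr2f2 d/d, with the lowest mutant value in replicate 4, as for Ltf and Lcn2. Some markers of the list did not share this difference: Dsg3 had a mean of 0.572 FPKM in Nr2f2 f/f and 0.131 FPKM in Nr2f2 d/d, and Sbsn had 2.87 and 2.71 FPKM. Of the 12, 7 markers, among them Trp63, Dsg3 and Ivl, averaged under 0.5 FPKM over the 8 libraries. The part of epithelial content in the values of Ltf, Lcn2, Wfdc18, Wfdc2, Slpi and Defb1 was not tested.

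Macrophage markers overlapped between the groups. The 14 markers, with C1qa the highest and Cd163 under 0.5 FPKM, summed to 164, 221, 309 and 190 FPKM in Nr2f2 f/f and to 324, 265, 218 and 251 FPKM in Nr2f2 d/d, in the same order as Lyz2 within Nr2f2 f/f but not within Nr2f2 d/d, where the markers were lowest in replicate 3 and Lyz2 in replicate 4. Of the 13 tested, 10 had a higher mean log2 abundance in Nr2f2 d/d, and their median log2 difference was 0.30 beside 0.87 for Lyz2. Only Ly6c2, a monocyte marker, passed the study's threshold, at a log2 fold change of 0.97, and Mrc1, Mertk and Cx3cr1 were at -0.22, -0.32 and -0.08. Their part in the Lyz2 difference was not tested.

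Neutrophil markers other than Hdc were low, and some of them, such as Elane and Ngp, were near 0 in both groups. Of 16 markers, 8 were under 0.5 FPKM on average, Ly6g, Cxcr2, Mpo, Elane, Ngp, Mmp8, Fpr1 and Stfa2l1. The sum of the 16 was 79.9 to 291 FPKM in Nr2f2 f/f and 68.0 to 394 FPKM in Nr2f2 d/d, but most of it was Hdc, which other uterine cells express too. Without Hdc, left out after its level was seen, the sum was 7.46, 8.57, 18.3 and 10.9 FPKM in Nr2f2 f/f and 19.0, 10.4, 14.2 and 10.3 FPKM in Nr2f2 d/d, so the groups overlapped and Nr2f2 f/f replicate 3 was the highest control, as for S100a8 and S100a9. Cxcr2 was at 0.047, 0.048, 0.341 and 0.219 FPKM in Nr2f2 f/f and 0.867, 0.368, 1.06 and 0.387 FPKM in Nr2f2 d/d, which does not overlap, and Ly6g was at 0.326, 0.088, 0.362 and 0.282 against 0.966, 0.274, 1.45 and 0.215 FPKM, which does. Of the 8 markers tested, 7 had a higher mean log2 abundance in Nr2f2 d/d, with a median of 0.20, and none of these passed the study's threshold. The exception, Retnlg, was at 0.729, 1.58, 4.73 and 2.49 FPKM in Nr2f2 f/f and at 0.772, 0.761, 0.266 and 0.344 FPKM in Nr2f2 d/d, a log2 fold change of -1.32 that passed the study's threshold with an adjusted limma p of 0.131. The part of neutrophils in the calprotectin, Ltf and Lcn2 values was not tested.

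**Figure D4:**
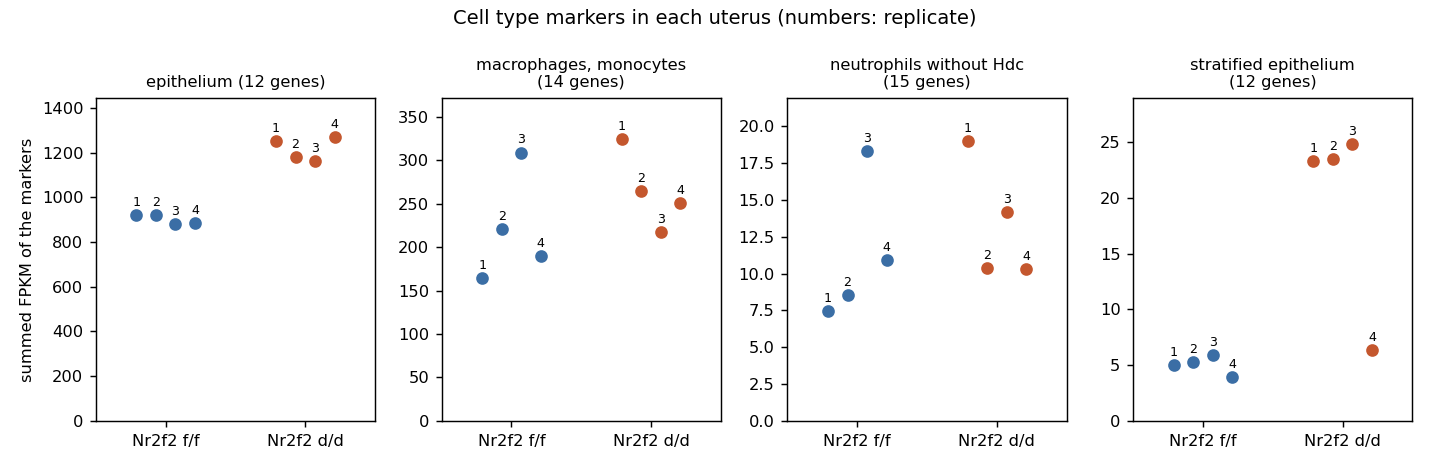
Summed FPKM of the markers of epithelium, macrophages and monocytes, neutrophils without Hdc, and stratified epithelium in the 4 Nr2f2 f/f (blue) and 4 Nr2f2 d/d (orange) uteri, on linear axes from 0 with replicate numbers beside the points. The epithelial sums do not overlap between the groups, the macrophage and neutrophil sums do, and Nr2f2 d/d replicate 4 has 6.39 FPKM of stratified markers against 23.3 to 24.8 in the other mutants.

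The other lists gave the setting. The 10 gland markers, led by Spink1, summed to 280 to 3310 FPKM in Nr2f2 f/f, with replicate 2 at the top, and to 86.0 to 267 FPKM in Nr2f2 d/d, so the sums did not overlap. Of the 10, only Spink1 itself did not overlap, at 115 to 1330 FPKM in Nr2f2 f/f and 0.729 to 24.4 FPKM in Nr2f2 d/d. Spink1 and Ttr passed the study's threshold as lower, at log2 fold changes of -5.93 and -1.03, and 4 of the 10 had a higher mean log2 abundance in Nr2f2 d/d. Oviduct and ciliated cell markers summed to 14.8 to 34.1 and 9.24 to 59.7 FPKM, stroma to 1620 to 1860 and 2150 to 3820, smooth muscle to 1230 to 1740 and 985 to 2450, and mesothelium to 70.4 to 96.8 and 89.0 to 112. The stromal sums did not overlap, but 4 of the 9 stromal markers had a higher mean log2 abundance, Dcn, Lum, Col1a1 and Col3a1, and the median log2 fold change was -0.09. Those 4 passed the study's threshold as higher, at 0.79, 0.55, 1.67 and 0.78 in that order, and Hand2 and Vim passed it as lower, at -0.71 and -0.66. The 6 endothelial markers fell from 183 to 254 FPKM in Nr2f2 f/f to 109 to 137 FPKM in Nr2f2 d/d, each of them past the study's threshold.

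Lists of related genes were read against the 8.80% of all genes that passed the study's threshold. Over all 7 lists, 19 of 128 distinct genes tested passed, which is 14.8%. Of 12 other WAP-domain genes tested, 1 passed the study's threshold, Wfdc17, a macrophage-associated gene, at a log2 fold change of 0.54 and an adjusted limma p of 0.0952, and the median of the list was 0.11. Without Nr2f2 f/f replicate 4, Wfdc17 did not pass either. Wfdc3 and Wfdc15b, at 0.55 and 0.39, did not pass. Of 11 other S100 genes tested, S100a14 passed as higher at 0.93, with an adjusted limma p of 0.146 and a Nr2f2 f/f mean of 0.231 FPKM, so that it passed the filter on low values through the Nr2f2 d/d libraries, and S100a6 and S100a7a passed as lower. S100a6, a calcium-binding protein of stroma and epithelium, was at 417 ± 88.3 FPKM in Nr2f2 f/f and 230 ± 64.8 FPKM in Nr2f2 d/d (SD over 4 libraries), which did not overlap and gave a log2 fold change of -0.88 with an adjusted limma p of 0.0837. S100a7a, the mouse psoriasin gene, had a log2 fold change of -1.07 and an adjusted limma p of 0.16, and it did not pass without Nr2f2 f/f replicate 2. The median of the 11 was 0.09.

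Among 7 tested relatives of lysozyme, lipocalin and transferrin, Rbp4, which carries retinol, passed as higher at a log2 fold change of 0.93 and an adjusted limma p of 0.0517, and Lyz1 passed as lower. Trf, the serum transferrin gene, had a log2 fold change of 0.43 and did not pass, and the median of the 7 was 0.09.

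Of 26 other secreted antimicrobial effectors that were tested, of 56 listed, 7 passed the study's threshold. All 7 were higher in Nr2f2 d/d, where 4.70% of all genes tested passed as higher. A higher mean log2 abundance was found for 21 of the 26 and for 6686 of all 14323 genes tested. The median log2 fold change of the 26 was 0.37. Reg3g, a lectin that kills Gram-positive bacteria at the gut surface, was at 0.45, 0.924, 0.431 and 0.294 FPKM in Nr2f2 f/f and at 1.61, 2.54, 2.75 and 1.31 FPKM in Nr2f2 d/d, a log2 fold change of 1.31 (SE 0.246) with an adjusted limma p of 0.0375. Leaving out 1 library moved that adjusted p between 0.0282 and 0.118, and it stayed under 0.05 only when Nr2f2 f/f replicate 2 or Nr2f2 d/d replicate 4 was the library omitted. Jchain, which joins IgA for secretion across epithelia, was at 5.14, 13.4, 24.2 and 12.2 FPKM in Nr2f2 f/f and at 104, 29.4, 88.5 and 69.3 FPKM in Nr2f2 d/d. Its log2 fold change of 2.41 had an adjusted limma p of 0.051, and its highest control and highest mutant were those of Ltf. Pla2g5, a secreted phospholipase, passed at a log2 fold change of 1.46 with an adjusted limma p of 0.0736.

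Receptors, inducing signals and proteases were followed in the same way. Of 15 receptors and uptake proteins tested, Fpr2, a formyl peptide receptor that also binds cathelicidin and serum amyloid A, passed as higher at a log2 fold change of 0.71 and an adjusted limma p of 0.0952, though with a Nr2f2 f/f mean of 0.327 FPKM it too passed the filter through the Nr2f2 d/d libraries. Cd36 passed at 0.66 with 0.228, in 1 of 8 fits when 1 library was left out. Slc22a17, the receptor of lipocalin 2, was at 17.3 ± 1.84 and 14.2 ± 0.80 FPKM (SD over 4 libraries), which gave a log2 fold change of -0.27, short of the 1.4-fold change of the threshold. The median of the 15 was -0.02.

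Of 42 inducing signals and transcription factors tested, Elf3, an epithelial ETS factor that is also among the epithelial markers, passed as higher and Cebpa and Cebpd passed as lower, with a median log2 fold change of 0.07. Elf3 was at 19.1, 11.9, 24.1 and 24.8 FPKM in Nr2f2 f/f and at 59.0, 46.6, 74.8 and 37.2 FPKM in Nr2f2 d/d, a log2 fold change of 1.43 (SE 0.279) with an adjusted limma p of 0.0415, which was 0.0389 to 0.112 with 1 library left out and under 0.05 only for the same 2 omissions as Reg3g. Ticam1, an adaptor of Toll-like receptors, and Irak3, an inhibitor of their signaling, had log2 fold changes of 0.28 and -0.33, neither of them 1.4-fold. Of 18 proteases that WAP-domain inhibitors can hold in check, Hpn, an epithelial serine protease, passed as higher at 0.77 with an adjusted limma p of 0.131. Klk8 and Klk11, tissue kallikreins, were at -0.38 and 0.86 and did not pass, and the median of the 18 was 0.11.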

How the data were processed

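Total RNA of whole uterus was measured in 8 libraries, 4 of each group. Groups and replicate numbers come from the sample titles, and every column of values was matched to a sample by name. The deposited values are FPKM. The authors filtered 76-bp paired-end reads, trimmed adaptors with cutadapt 1.12, aligned to mm10 with STAR 2.5.2b and counted fragments per gene with featureCounts 1.5.0-p1. The annotation, the strand setting and the FPKM formula are not given in the sources used here. The submitters' processing notes also name Cufflinks 2.0.2, with no role. The authors tested counts with DESeq2, and counts were not used here.

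The log2 of FPKM + 0.5 was used. The filter kept 14323 of 24963 genes, those averaging 0.5 FPKM or more in all 8 libraries together. Groups were compared by limma 3.58.1 under R 4.3.3, two-sided, using lmFit, then eBayes with its trend option, and Benjamini-Hochberg adjustment over the genes kept. Single genes were compared with a two-sided exact permutation test over the 70 arrangements. The p-values measure the spread between these libraries. Coordinates and exon lengths are from GENCODE vM21, in which 24378 symbols matched 1 gene. Depth was recovered from micro RNA hairpin genes, of which 97.7% to 98.9% came within 0.1 of a whole fragment. Simulated data with known changes were used to test the fit. Figures were drawn with matplotlib 3.10.9 in Python 3.11.15.

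The 10 genes, the lists and the tests were chosen with earlier results of these data known. Named genes are the 10, the 3 with the smallest p in each list of related genes, and the 3 most like Ltf, Slpi, S100a9 and Lyz2 in their deviations. Named after their values were seen are Cebpa and Cebpd, the epithelial, stratified, gland, stromal, macrophage and neutrophil markers singled out from their lists, and the sum of neutrophil markers without Hdc. Alternatives were other values added (0.1 and 1), no filter or a filter at 1 FPKM, quantile normalization, median-ratio scaling, eBayes with robust estimation or no trend, the replicate number as a block, and each library left out.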

Additional observations from a re-analysis of the deposited data

Results flagged for a closer look

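In 4 of 22 groups of 4 values that were examined, for the 10 genes and Nr2f2 in each genotype, 1 library stood apart from the others of its group by Dixon's 95% limit. Chance sets about 1 in 20 groups apart where values are normally distributed, which was not tested for these FPKM. Genes such as Ltf and Lcn2 also varied together, so the groups are not independent and the count is a description. In Nr2f2 f/f, replicate 3 stood above the others for Ltf at 407 FPKM, for Lcn2 at 145 FPKM and for Wfdc18 at 1.13 FPKM. In Nr2f2 d/d, replicate 3 stood below the others for Nr2f2 itself at 6.90 FPKM, and it was the highest of its group for Lcn2, S100a8 and S100a9.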

How the results depend on the processing

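Of 153 values of the 9 genes under the alternatives, 140 kept their direction and their side of the study's threshold. Defb1 reversed to 0.11 with 0.1 added before the log2 and ranged from -0.62 to 0.56 with 1 library left out. The number of genes with an adjusted p under 0.05, 1 with all 8 libraries, was 0 with 1 added before the log2, without a filter on low values, with a mean of at least 1 FPKM, with robust eBayes, under the replicate block and in each fit that left out 1 library (0 to 0). The number past the study's threshold, 6 with all 8 libraries, ran from 4, when Nr2f2 f/f replicate 1 was omitted, up to 7, when the omitted library was Nr2f2 f/f replicate 3 or Nr2f2 d/d replicate 4, and was 5 after quantile normalization and 7 under the replicate block, with Lcn2 added at an unadjusted limma p of 0.00071. Deviations of same-numbered libraries correlated at -0.20, -0.17, 0.05 and -0.04. The block and these correlations use the numbers of the titles, which differ from those of the file's columns for 4 of the 8 libraries. A pairing by the column numbers was not examined, so these values cannot settle whether libraries were handled in pairs. The related genes past the study's threshold numbered 19 of 128 tested (14.8%, against 8.80% of all genes) and ranged from 16 to 24. Median-ratio scaling moved the median of all genes by 0.0224 on the log2 scale. Depth limits Camp alone among the 10 genes.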
